A study of Homo sapiens with 2 samples.

Results

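The genes described here are 8 components and targets of the Wnt pathway, taken by symbol from the 2007 genes that the authors listed as differing between the libraries. They are AXIN2, TCF7, DKK1, DVL3, FRAT2, TLE2, LZTS2 and CTNND1, and all 8 were found. RNA was sequenced from HT-29, a human colon adenocarcinoma epithelial line that carries mutant APC. One library came from HT-29 cells with a scramble control, and 1 came from HT-29 cells with a short hairpin RNA against GPR126. The labels give no hairpin sequence, vector, clone or time for either group. GPR126, also called ADGRG6, belongs to the adhesion class of G protein-coupled receptors. Because each group held 1 library, every difference is between these 2 libraries and none has a replicate check.

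Wnt signalling controls the level of β-catenin. Without a ligand, a destruction complex built on the scaffolds Axin and APC, with the kinases GSK3 and CK1, marks β-catenin for breakdown. When a Wnt ligand binds its receptors, Dishevelled proteins and GSK3-binding proteins disarm that complex, and β-catenin enters the nucleus to displace Groucho corepressors from TCF/LEF factors. In the intestine the pathway maintains crypt stem cells, and loss of APC, as in most colon cancers, leaves it active without a ligand. Several of its targets encode its own inhibitors and so form a feedback loop.

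The library totals implied by the authors' per-million values were 5753320 reads for the scramble and 6010192 for the knockdown library. Which reads these totals include is not known here. GPR126 had 68 reads in the scramble library and 2 in the knockdown library. The listed genes all differed by at least 2-fold in the authors' deposited ratio, so a pathway gene that is not listed has no value here. None of 10 colon epithelial, 6 leukocyte or 5 endothelial markers was listed, so the labelled cell type could not be checked against its markers. Of 8 fibroblast markers, COL1A1 alone was listed, with 83 and 227 reads, and its part in any result was not tested. In bulk RNA, fewer cells of a type and less RNA per cell cannot be told apart.

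The 8 genes fell on both sides. AXIN2, TCF7, DKK1, LZTS2 and TLE2 were lower in the knockdown library, between 2.16-fold and 3.15-fold, and DVL3, CTNND1 and FRAT2 were higher, between 2.17-fold and 5.64-fold. With at least 2-fold as the call, 5 members were lower, beside 66.4% of all listed genes, and 3 were higher, beside 32.9%; in either direction 99.3% of the listed genes passed, so nothing can be read from these counts. The median log2 ratio of the 8 was -1.17 and that of all 2007 listed genes was -1.16. The members were chosen from the same contrast and are described without a test.

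**Figure D1:**
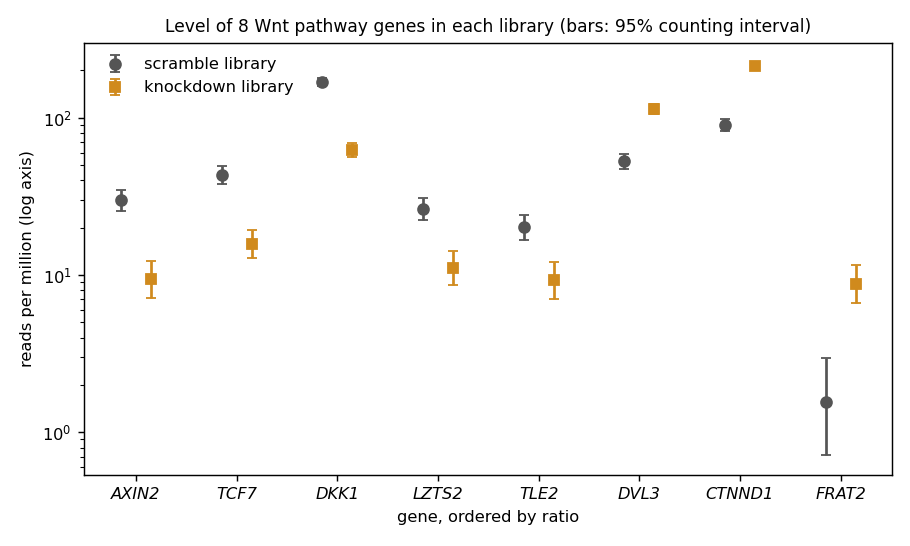
RPM (log axis) of each of the 8 genes in the scramble library (grey circles) and the knockdown library (orange squares), with bars for the 95% counting interval and genes ordered by ratio. DKK1 had the highest scramble level at 168 and CTNND1 the highest knockdown level at 213, while FRAT2 had the lowest level in both libraries, with a knockdown interval that overlaps those of AXIN2, TLE2 and LZTS2.

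AXIN2, the inducible Axin scaffold that is a standard readout of β-catenin activity, had 172 reads in the scramble library and 57 in the knockdown library. Scaled to the library total, these are 29.9 and 9.48 RPM (reads per 1000000), with counting intervals of 25.6 to 34.7 and 7.18 to 12.3 that do not overlap. AXIN2 was 3.15-fold lower in the knockdown library, with a 95% counting interval of 2.32 to 4.33, the largest ratio among the 5 lower members. It ranked 343 of the 1339 lower listed genes, so many genes were lower by a larger ratio. Its family relative AXIN1 was not listed.

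TCF7 encodes TCF-1, a DNA-binding partner of β-catenin whose gene is itself a target. It had 249 scramble and 95 knockdown reads, or 43.3 and 15.8 RPM. The level was 2.74-fold lower in the knockdown library (2.15 to 3.51), at rank 537 of the lower genes. A second TCF/LEF gene was listed. TCF7L1, which mostly acts as a repressor at TCF sites, had 74 and 22 reads, a 3.51-fold lower level (2.16 to 5.94). TCF7L2 and LEF1 were not listed.

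DKK1 encodes a secreted inhibitor that binds the co-receptors LRP5 and LRP6, and it is induced by β-catenin in a feedback loop. It was the most abundant of the lower members, with 968 scramble and 374 knockdown reads, or 168 and 62.2 RPM. DKK1 was 2.70-fold lower in the knockdown library, and its reads gave the narrowest interval among the lower members, 2.40 to 3.05. It ranked 560 of the lower genes. No other Dickkopf gene was listed.

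Upstream windows of 3 members are shown, those of DKK1 and TCF7, the 2 members with a match to the letters searched for, and that of FRAT2, without one. For TCF7 the window with a match is shown. LZTS2 and TLE2, which were also lower, had no match, and a link of matches with direction was not tested. Each holds the 250 bases before a RefSeq transcript start on GRCh38.p14, written 5′ to 3′ on the gene's strand, and capitals mark the letters searched for. They lie at chr10:52314031-52314280 (plus strand, DKK1), chr5:134123368-134123617 (plus strand, TCF7) and chr10:97334730-97334979 (minus strand, FRAT2).
DKK1: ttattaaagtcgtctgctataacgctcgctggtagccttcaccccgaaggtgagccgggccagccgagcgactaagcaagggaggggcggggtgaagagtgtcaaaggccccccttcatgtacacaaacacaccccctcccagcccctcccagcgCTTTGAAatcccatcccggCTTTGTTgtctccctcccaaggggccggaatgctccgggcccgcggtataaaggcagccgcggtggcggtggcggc
TCF7: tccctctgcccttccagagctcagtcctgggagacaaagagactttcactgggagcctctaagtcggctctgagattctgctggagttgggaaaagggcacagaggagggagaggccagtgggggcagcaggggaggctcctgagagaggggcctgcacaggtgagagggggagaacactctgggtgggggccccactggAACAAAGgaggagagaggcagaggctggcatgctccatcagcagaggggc
FRAT2: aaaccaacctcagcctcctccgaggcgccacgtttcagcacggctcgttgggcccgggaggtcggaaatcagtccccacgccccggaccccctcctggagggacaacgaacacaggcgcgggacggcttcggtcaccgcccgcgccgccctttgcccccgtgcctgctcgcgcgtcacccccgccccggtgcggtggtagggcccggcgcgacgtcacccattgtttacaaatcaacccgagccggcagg

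The letters searched for, on both strands, were the 4 heptamers of the TCF/LEF consensus. Of all 35116 RefSeq windows of this length, 2.26% held CTTTGAT and 3.80% held CTTTGAA, while the share was 4.50% for CTTTGTT and 2.35% for CTTTGTA. The DKK1 window holds CTTTGAA, which begins 95 bases before the start, and CTTTGTT, which begins 76 bases before it. The TCF7 window holds AACAAAG, the reverse complement of CTTTGTT, 50 bases before that start. A further TCF7 window, the FRAT2 window and those of DVL3, LZTS2 and TLE2 held none, so 2 of the 6 members with a window and 2 of 10 windows had a match. No window was available for AXIN2 or CTNND1. At least 1 of the heptamers stood in 12.0% of all windows and in 7.78% of the 2366 windows of listed genes. The heptamers are described as letters only, and binding at these windows was not measured. The upstream windows of DKK1 and FRAT2 overlap exons of the non-coding genes PRKG1-AS1 and AL355490.1 in GENCODE 29.

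Both of the other lower members act on β-catenin or at its target genes. LZTS2 (LAPSER1), a leucine zipper protein known to bind β-catenin and limit its nuclear presence, had 152 scramble and 67 knockdown reads, or 26.4 and 11.1 RPM. It was 2.37-fold lower in the knockdown library (1.77 to 3.21). TLE2, a Groucho-family corepressor that binds TCF/LEF factors, had 116 and 56 reads, or 20.2 and 9.32 RPM, a 2.16-fold lower level (1.56 to 3.03). Their ranks were 866 and 1111 among the lower genes, and the intervals of both reached below 2-fold. No other Groucho or LZTS family gene was listed.

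FRAT2 encodes a protein that binds GSK3 and withdraws it from Axin, which spares β-catenin. It had 9 reads in the scramble library and 53 in the knockdown library, or 1.56 and 8.82 RPM. The 9 scramble reads gave a wide interval, 0.715 to 2.97 RPM, which still lay below the knockdown interval of 6.61 to 11.5. FRAT2 was 5.64-fold higher in the knockdown library (2.76 to 13.0), the largest ratio of the 8 genes, at rank 97 of the 668 higher listed genes. Its neighbour and close relative FRAT1 was not listed.

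DVL3 encodes a Dishevelled protein, which is recruited to activated Frizzled receptors and carries the signal to the destruction complex. It had 303 scramble and 686 knockdown reads, or 52.7 and 114 RPM, and was 2.17-fold higher in the knockdown library (1.89 to 2.49). DVL1 and DVL2 were not listed.

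CTNND1 encodes p120-catenin, which stabilises cadherins at the membrane and binds the transcriptional repressor Kaiso. It had 518 scramble and 1279 knockdown reads, or 90.0 and 213 RPM. CTNND1 was 2.36-fold higher in the knockdown library, with a counting interval of 2.13 to 2.62 that lay beyond 2-fold. ZBTB33, which encodes Kaiso, was listed in the opposite direction, with 114 and 49 reads, 2.43-fold lower (1.72 to 3.47). β-catenin itself (CTNNB1), the α-catenins and E-cadherin were not listed.

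**Figure D2:**
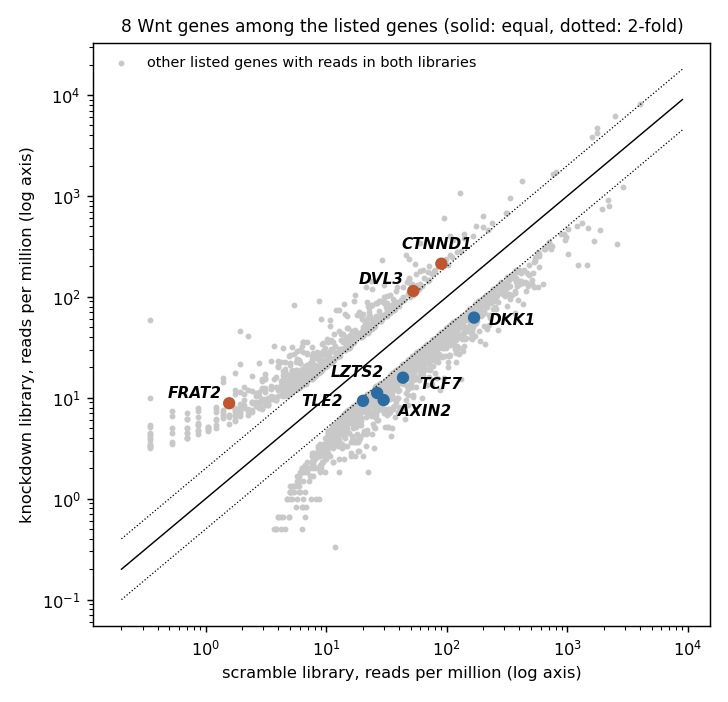
RPM in the knockdown library (y axis) against the scramble library (x axis), both log axes, for listed genes with reads in both libraries (grey) and the 8 Wnt genes (blue lower, orange higher); the solid line marks equal levels and the dotted lines 2-fold. The empty band between the dotted lines shows that genes within 2-fold were not listed, and TLE2 at 2.16-fold and DVL3 at 2.17-fold lie close to its edges.

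The counting intervals excluded equality for all 8 genes, as they did for 100% of the listed genes. They lay wholly beyond 2-fold for 5 members, AXIN2, TCF7, DKK1, FRAT2 and CTNND1, beside 49.5% of the listed genes, and nothing is read from that count. The 5 lower genes together had 288 RPM in the scramble library and 108 RPM in the knockdown library, and the 3 higher genes had 144 and 336 RPM. DKK1 supplied 58.4% and 57.6% of the reads of the lower genes, and CTNND1 62.4% and 63.4% of those of the higher genes. Over all 8 genes the sums were 432 and 444 RPM.

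Levels were compared between genes as RPM per kilobase of exon, using the union of exons in the basic transcript set of GENCODE 29. Dividing by length assumes that reads were spread along whole transcripts, which was not checked here, and the order of genes depends on it. In RPM alone, CTNND1 stood above DKK1 in the knockdown library, at 213 against 62.2. In the scramble library DKK1 stood at 94.0 RPM per kilobase, CTNND1 at 12.9, TCF7 at 10.5, DVL3 at 9.87, TLE2 at 6.88, AXIN2 at 6.45, LZTS2 at 4.47 and FRAT2 at 0.707. The intervals of TCF7 overlapped those of CTNND1 and DVL3, and that of AXIN2 overlapped that of TLE2, so these neighbours were not separated by counting error. DVL3 passed TCF7 when the longest of all GENCODE 29 transcripts, which for TCF7 is outside the basic set, was used as the length (9.87 against 8.10). In the knockdown library DKK1 at 34.8 (31.3 to 38.5) and CTNND1 at 30.5 (28.8 to 32.2) had overlapping intervals, followed by DVL3 at 21.4. FRAT2, lowest in the scramble library, stood at 3.98 RPM per kilobase in the knockdown library, with an interval overlapping those of TCF7 at 3.84 and TLE2 at 3.18. AXIN2 and LZTS2 had the lowest levels there, at 2.05 and 1.89, with intervals that overlapped each other, and that of AXIN2 also overlapped that of TLE2.

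Read ratios between members do not depend on how the libraries are scaled. For every DVL3 read the scramble library held 0.568 AXIN2 reads and the knockdown library 0.0831, so that the ratio in the knockdown library was 0.146 times that in the scramble library (0.104 to 0.205). DKK1 reads outnumbered CTNND1 reads 1.87 to 1 in the scramble library and were 0.292 of them in the knockdown library, a change of 0.156 times (0.133 to 0.184). AXIN2 had 19.1 reads for each FRAT2 read in the scramble library and 1.08 in the knockdown library. For all 15 pairs of a lower with a higher member the interval excluded an unchanged ratio, as the choice of members on opposite sides fixes. Among the 10 pairs of lower members none did. These members were chosen from 1 side with ratios close together, and pairs of other lower listed genes were not counted. Nothing particular to the pathway is therefore read from those 10 pairs. TCF7 and DKK1 kept almost the same proportion, 0.257 and 0.254 TCF7 reads for each DKK1 read, a change of 0.987 times (0.749 to 1.30). Among the 3 pairs of higher members, DVL3 to CTNND1 changed by 0.917 times (0.772 to 1.09), while FRAT2 changed against CTNND1 by 2.39 times (1.15 to 5.54) and DVL3 changed by 0.384 times against FRAT2 (0.165 to 0.800).

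**Figure D3:**
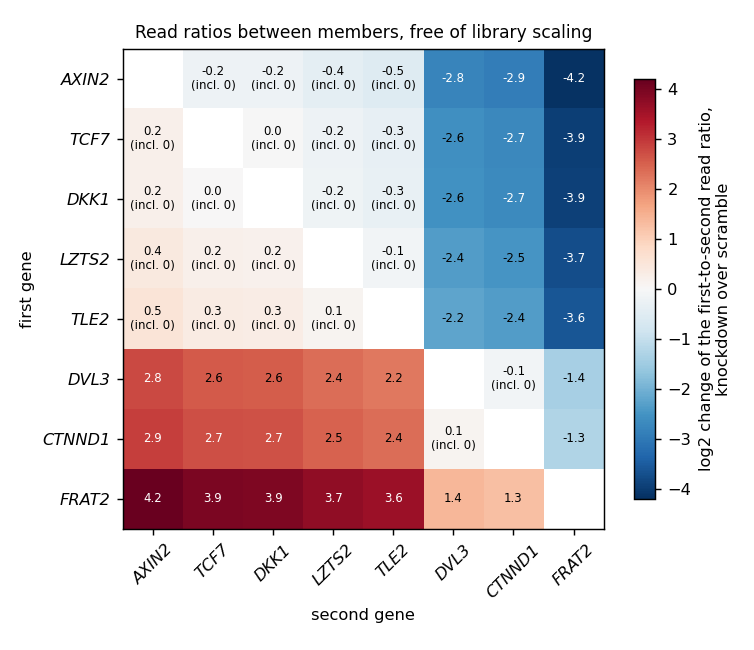
Log2 change, knockdown over scramble, of the read ratio between each row gene and each column gene, from blue (row gene lower relative to column gene) to red; "incl. 0" marks a 95% counting interval that holds no change. The block of the 5 lower genes is marked throughout, as is DVL3 with CTNND1, and FRAT2 differs from every other gene.

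The size of the ratios depends on scaling each library to its total. The log2 ratio of all listed genes had a median of -1.16, and relative to that median AXIN2 stood at -0.49, TCF7 at -0.29, DKK1 at -0.27, LZTS2 at -0.08 and TLE2 at 0.05, so TLE2 changed sign. DVL3, CTNND1 and FRAT2 stood at 2.27, 2.40 and 3.59. The median was taken over genes selected for differing, most of them lower, and levels of the unlisted genes were not used here. Reads in listed genes made up 15.8% of all reads for the scramble library, against 11.5% for the knockdown library. Most reads in both libraries thus lay outside the genes that set the median. Whether the level of those other reads shifted as the median did was not tested.

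**Figure D4:**
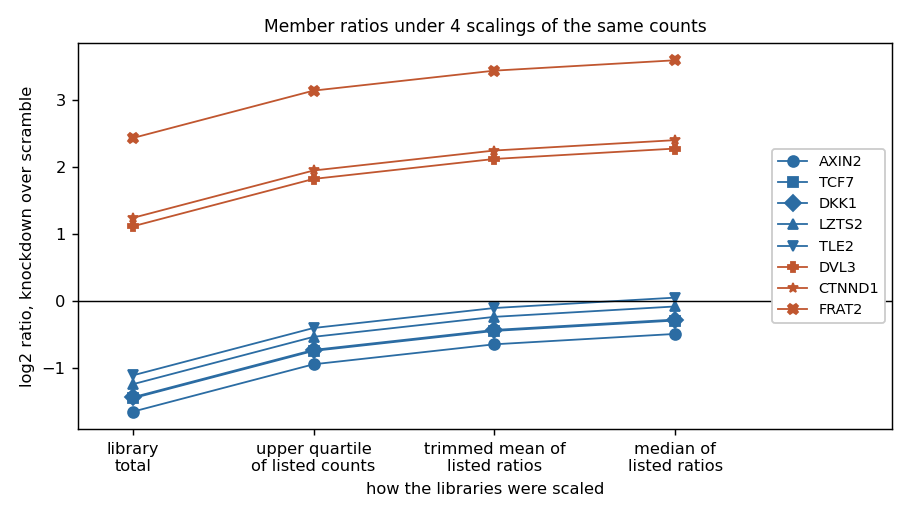
Log2 ratio (knockdown over scramble, y axis) of each member under 4 ways of scaling the same counts (x axis), blue for the lower and orange for the higher members. All lines move up together, the 5 lower genes approach 0 and TLE2 crosses it under the median scaling at 0.05, while the 3 higher genes stay above 1.

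The wider pathway was described with 8 lists of 222 genes in all, of which 24 were listed, 14 lower and 10 higher. The share of all measured genes that the authors listed is not known here. How many genes of a list were listed is therefore not read as many or few. Without the 8 members, 16 of 214 were listed, 9 lower and 7 higher, with a median log2 ratio of -1.15, close to the -1.16 of all listed genes. For 7 of the 16 the counting interval lay wholly beyond 2-fold, beside 49.5% of all listed genes. Both splits stand beside 66.4% of all listed genes at least 2-fold lower and 32.9% at least 2-fold higher, and nothing particular to the pathway is read from them or from the counts by role that follow.

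Among ligands and secretion factors, 2 of 26 were listed and they went opposite ways. WNT10B, with 44 scramble reads and 16 in the knockdown, was 2.87-fold lower (1.59 to 5.45), and WNT7B, with 16 and 52 reads, was 3.11-fold higher (1.75 to 5.84). None of 25 receptors and receptor turnover genes was listed, among them the Frizzleds, LRP5, LRP6, LGR5, RNF43 and ZNRF3. DKK1 was the only one listed of 17 secreted inhibitors.

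Of 46 cytoplasmic transducers and destruction complex genes, 6 were listed, 4 lower and 2 higher, including 4 members. The others were subunits of protein phosphatase 2A, which acts within the destruction complex among many other roles. The scaffold subunit PPP2R1A, at 171 and 68 reads, was 2.63-fold lower (1.97 to 3.53), and the regulatory subunit PPP2R5D, at 242 and 99 reads, was 2.55-fold lower (2.01 to 3.26).

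Of 35 nuclear factors and cofactors, 5 were listed, 4 lower and 1 higher. Besides TCF7, TLE2 and TCF7L1, the lower ones included RUVBL1, an ATPase known to bind β-catenin, with 377 and 180 reads (2.19-fold lower, 1.83 to 2.63), whose log2 ratio became 0.03 relative to the median of listed genes. The higher one was CTNNBIP1, which encodes ICAT, an inhibitor that keeps β-catenin from TCF factors. It had 34 and 108 reads and was 3.04-fold higher (2.05 to 4.61).

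Of 31 target genes, 9 were listed, 4 lower and 5 higher, and AXIN2, TCF7 and DKK1 were 3 of the 4 lower ones. The fourth lower target was BIRC5, the apoptosis inhibitor survivin, with 769 and 230 reads (3.49-fold lower, 3.01 to 4.06). BIRC5 is also a mitosis gene. MYC, with 610 and 2405 reads, was 3.77-fold higher (3.45 to 4.13), and JUN, with 62 and 355 reads, 5.48-fold higher (4.18 to 7.30). VEGFA was 5.03-fold higher (4.19 to 6.08), PLAUR, the urokinase receptor, 2.27-fold (1.86 to 2.77) and BMP4 2.05-fold (1.81 to 2.33). The crypt stem cell targets LGR5 and ASCL2, and CCND1, SP5, NKD1 and NOTUM, were not listed.

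**Figure D5:**
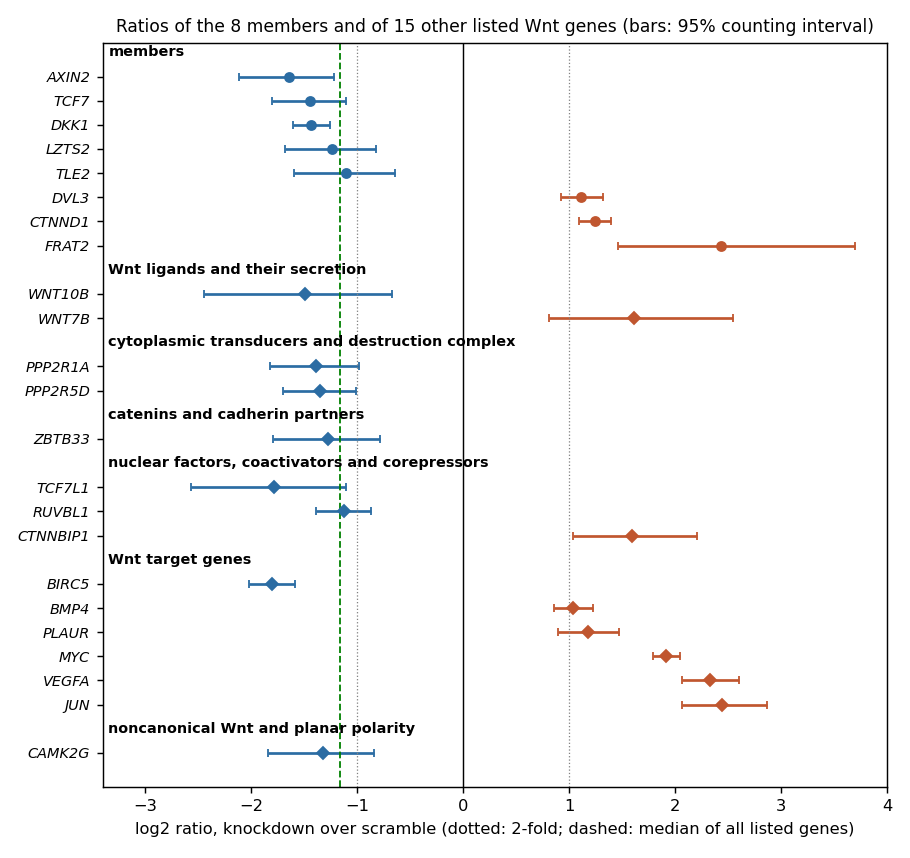
Log2 ratio (knockdown over scramble) with 95% counting intervals of the 8 members (circles) and 15 of the 16 other listed Wnt genes (diamonds) by role; dotted lines mark 2-fold and the dashed line the median of all listed genes at -1.16. Lower and higher genes occur both among the members (5 and 3) and among the other genes drawn (8 and 7), and of the target genes drawn as diamonds BIRC5 lies on the left and the other 5 on the right.

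Of 40 noncanonical and planar polarity genes 2 were listed, and both were lower. CAMK2G, a calcium/calmodulin-dependent kinase subunit, had 118 and 49 reads (2.52-fold lower, 1.79 to 3.59).

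The likeness of other genes to each member was measured as the distance between their log2 RPM values over both libraries. With 2 libraries and 2007 genes, every member had a close match. The nearest to AXIN2 was DLGAP5, a spindle gene, with identical counts of 172 and 57 reads. DKK1 was nearest to PGD, a pentose phosphate enzyme (963 and 374 reads), TCF7 to ADI1, LZTS2 to COQ3 and TLE2 to TOR1AIP1. Among the higher members, CTNND1 was nearest to the snoRNA host gene SNHG12 (522 and 1281 reads), DVL3 to CPA4 and FRAT2 to GPSM3. The largest of these distances was 0.038, for ADI1.

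In the authors' deposited table the log2 ratios of the members ran from -1.66 for AXIN2 to 2.50 for FRAT2, beside -1.65 and 2.43 computed here from the counts with 0.5 reads added. The authors' deposited table gives a false discovery rate of 2.56e-65 for DKK1, 1.08e-05 for FRAT2 and exactly 0 for CTNND1. With 1 library a group these values compare the libraries, not the conditions.

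The sources used here do not give how reads were assigned among overlapping genes. In GENCODE 29, 24.5% of the distinct 36-base stretches of AXIN2 transcripts also occur in transcripts of another gene, nearly all in AC004805.1, an overlapping gene model on the same strand. The share was 9.37% for FRAT2, through AL355490.1 on the opposite strand and FRAT1, and 8.18% for DKK1, through PRKG1-AS1 on the opposite strand. It was 4.44% for CTNND1, which overlaps the readthrough gene TMX2-CTNND1, and between 1.52% and 2.28% for DVL3, LZTS2, TLE2 and TCF7. These are shares of distinct transcript stretches, not of reads. They may make the counts of AXIN2, FRAT2 and DKK1 less certain, depending on the annotation used, which is not known here. They do not give the size of any error. Of the protein-coding neighbours of the 8 genes in RefSeq, 1 was listed, EIF2B5 beside DVL3.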

How the data were processed

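One table of the whole series was used. It holds a whole-number read count per gene and library, per the file headers. The columns headed TPM hold RPM values made by the authors: each count above 0 divided by 1 library total, times 1000000 (100% of values within 0.005), with 0 entered as 0.01. Library totals were recovered from these values, to within 1 read. The authors' deposited log2 ratio, p-value and FDR were copied only where named. The aligner, counter, annotation and genome build were not given in the sources used here.

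Log2 ratios, knockdown over scramble, were computed with 0.5 reads added to each count and scaling to the library total. Folds carry no pseudocount. Fold intervals are exact Clopper-Pearson 95% intervals on the summed count, level intervals exact Poisson and read-ratio intervals exact conditional. They cover counting error only. No test was run, because 1 library a group leaves no replicate error. The interval calculation was tried on simulated Poisson counts, the model that the intervals assume. Such counts hold no variation between libraries, so only the computation was checked.

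The members and lists were chosen with earlier results of these data known. Genes named are the members, GPR126, every listed gene of the lists, listed family relatives and the nearest gene to each member, leaving out provisional names; others were chosen after their values were seen. One gene that the rule takes is not reported here. Symbols were matched through Entrez numbers (2004 of 2007) to GRCh38.p14 RefSeq; upstream windows come from RefSeq and exon lengths from the basic transcript set of GENCODE 29. RefSeq windows were available for 6 of the 8 members. Alternatives covered the pseudocount, scaling, unit, fold limit and floor. Scripts ran in Python 3.11.15 with scipy 1.17.1, numpy 2.4.6, matplotlib 3.10.9 and pandas 2.3.3.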

Additional observations from a re-analysis of the deposited data

How the results depend on the processing

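No paired analysis was possible because there was 1 library a group, which also leaves none to leave out. A pseudocount of 0.05 or 5 reads and the authors' RPM values left every member ratio inside its counting interval. A 1.5-fold limit and a floor of 5 RPM changed no count by over 1.5 times; the first says nothing, since the table is limited to 2-fold. Scaling on the listed genes, most of which were lower, took out a log2 shift of -1.16 with their median, -1.005 with a trimmed mean and -0.71 with the upper quartile. In that order the log2 ratios became -0.49, -0.64 and -0.94 for AXIN2, -0.29, -0.44 and -0.74 for TCF7, -0.27, -0.43 and -0.73 for DKK1, -0.079, -0.23 and -0.53 for LZTS2, and 0.053, -0.10 and -0.40 for TLE2. They became 2.27, 2.12 and 1.82 for DVL3 and 2.40, 2.24 and 1.95 for CTNND1; FRAT2 stayed within its wide counting interval. The median of the 24 listed Wnt genes went from -1.15 to 0.0057, -0.15 and -0.45. No member was then 2-fold lower under any of these scalings (0 of 8), and of the 24 listed genes 0, 0 and 2 were. The 5th percentile of the log2 ratio over all listed genes was -2.22 before these scalings. Few listed genes therefore stayed 2-fold lower after the median was taken out. A 4-fold limit left 0 lower and 1 higher member, FRAT2, and 0 lower and 3 higher of the 24. Chosen after seeing the data, a counting interval wholly beyond 2-fold left 3 lower and 2 higher members, and 6 and 6 of the 24. In either direction 49.5% of all listed genes had such an interval. Shares of all listed genes under the other scalings and the 4-fold limit were not computed. Nothing particular to the members or the 24 is read from these counts. Depth limits FRAT2 most, with 9 scramble reads.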

Other observations

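The authors' table carries gene ontology terms, and these were searched for Wnt or beta-catenin after the values were seen. Of 19 listed genes with such a term, 12 were lower and 7 higher, beside 66.4% and 32.9% of all listed genes at least 2-fold lower and higher; 8 are the members, and 5 of the other 11 were in none of the Wnt lists. SLC9A3R1 (NHERF1), a PDZ scaffold, had 375 reads in the scramble and 130 in the knockdown library, a 3.01-fold lower level (2.46 to 3.71). BRD7, a bromodomain protein of a chromatin remodelling complex, was at 301 and 117 reads, 2.69-fold lower (2.16 to 3.36), and the focal adhesion adaptor TGFB1I1 had 34 and 10 reads (3.55-fold lower, 1.72 to 8.06). CSNK2A1, the catalytic subunit of casein kinase 2, had 511 and 1355 reads and was 2.54-fold higher (2.29 to 2.82). CD24, a surface glycoprotein, had 72 and 156 reads (2.07-fold higher, 1.56 to 2.78). CSNK2A1 and CD24 have near-identical copies in the genome, so their counts depend on an unstated assignment of shared reads.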
